A study of Mus musculus with 12 samples.

Results

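The genes described here encode 8 inhibitors of proteases in the mouse prostate: Slpi, Wfdc2, Wfdc6a and Wfdc3 of the whey acidic protein (WAP) family, Spink5 of the Kazal family, the cystatin-fold inhibitors Csta1 and Cst3, and Mug1 of the alpha-2-macroglobulin family. They were 8 of the 18194 genes measured, and each was read from the brightest of its probe sets over the 12 arrays that name no other gene. They were chosen by their signals in these same arrays, that is, by the differences between lobes and genotypes that are described here, so those differences are descriptions. Where a member is said to pass or miss limma's threshold, that gives its place in the fit of all genes and is no independent test. RNA came from the ventral and the lateral lobe of the prostate of mice aged 16 weeks, either wild type or carrying the label Med1 knock out. Each of the 4 groups had 3 arrays. Med1 belongs to Mediator and is the subunit through which nuclear receptors, the androgen receptor among them, reach RNA polymerase II. The labels give no strain, and they do not say in which cells Med1 was deleted, with which Cre driver, or whether each array is a separate mouse. The p-values therefore speak only of array-to-array spread, part of which may be technical.

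Protease inhibitors are common products of the rodent prostate and seminal vesicle, and they hold in check the proteases of semen, of inflammation and of epithelial surfaces. WAP-domain proteins carry a small disulfide-bonded fold, and the best known of them, SLPI, blocks neutrophil elastase and cathepsin G. Kazal-type inhibitors and WAP inhibitors mostly act on serine proteases, cystatins and stefins act on cysteine cathepsins, and alpha-2-macroglobulins trap proteases of every class in a cage-like molecule. Csta1 encodes a stefin, which is known as a cytosolic protein without a signal peptide, so the word "secreted" fits the other members but not this one. Wfdc6a and Wfdc3 are named from their WAP domains, and their targets are less well known.

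The signals were log2 values. The ventral arrays had medians between 6.39 and 6.43 and the lateral arrays between 6.05 and 6.06, as separate normalizations would leave them. The labels name no such runs, and a difference of runs could not be told apart from the lobes. Levels between lobes are therefore given after quantile normalization of the 12 arrays together, and genotype differences within a lobe as deposited. The files give no detection calls. A signal is called low here where it lies below the lower quartile of the array's probe sets, at 4.73 in the ventral arrays, 4.52 in the lateral arrays and 4.63 after joint normalization, and a difference against a low signal is a lower bound. Of 8 measured luminal prostate markers none was low in all arrays of either lobe, and Hoxb13, a homeobox gene of prostate epithelium, read between 10.9 and 12.3 in every array. Med1 itself was lower in the ventral knockout arrays, by a log2 difference of -0.57 ± 0.12 (moderated standard error, SE), with means of 8.86 against 9.43. In the lateral lobe it differed by only -0.13 ± 0.12, with overlapping arrays. This probe set, the brightest of 7 for Med1, thus does not check the lateral labels. The other Med1 probe sets are not described here, and the lateral arrays of that label are called those labelled knockout.

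Some arrays stood apart. Wild-type lateral array 3 was higher than both other arrays of its group for 25 of 27 other genes at least 16-fold higher in the ventral lobe, with a median excess of 0.48. Wild-type ventral array 3 was above its 2 group mates for 18 of 24 lateral-high genes. It gave 7.55 for the seminal vesicle gene Svs2, against 2.80 and 2.99 in its group. Array 3 of the lateral group labelled knockout read 8.71 for Svs2 against 11.89 and 11.99. Results that rest on these arrays are given with and without them, and the part of tissue carried over between lobes or from the seminal vesicle was not tested.

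The sequences just upstream of the genes on which the lobe and genotype patterns turn are shown first. Each is the 250 bases before the RefSeq transcription start, written along the gene's own strand from the GRCm38.p6 assembly. Slpi, Wfdc6a and Eppin are shown since all were higher in the lateral arrays labelled knockout, and Wfdc6a has 2 annotated starts. Csta1 and Mug1 are shown as ventral-lobe genes. Capitals mark the half-site of the androgen receptor, AGAACA or its reverse complement TGTTCT, and the half-site shared by many other nuclear receptors, AGGTCA or TGACCT.
Slpi, chr2:164356508-164356757, minus strand: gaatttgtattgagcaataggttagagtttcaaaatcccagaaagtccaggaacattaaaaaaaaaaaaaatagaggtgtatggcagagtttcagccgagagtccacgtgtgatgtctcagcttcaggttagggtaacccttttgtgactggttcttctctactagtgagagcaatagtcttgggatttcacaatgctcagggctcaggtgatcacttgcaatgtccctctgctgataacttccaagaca
Wfdc6a start 1, chr2:164585178-164585427, minus strand: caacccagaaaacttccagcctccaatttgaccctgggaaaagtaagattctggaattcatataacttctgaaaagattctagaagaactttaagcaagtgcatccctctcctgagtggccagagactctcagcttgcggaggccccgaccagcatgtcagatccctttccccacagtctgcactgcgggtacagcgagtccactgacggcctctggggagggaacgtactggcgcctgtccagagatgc
Wfdc6a start 2, chr2:164585448-164585697, minus strand: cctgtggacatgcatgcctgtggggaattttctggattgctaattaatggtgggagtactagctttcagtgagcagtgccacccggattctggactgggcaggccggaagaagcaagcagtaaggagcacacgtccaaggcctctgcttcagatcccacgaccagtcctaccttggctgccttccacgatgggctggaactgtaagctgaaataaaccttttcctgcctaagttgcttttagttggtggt
Eppin, chr2:164593572-164593821, minus strand: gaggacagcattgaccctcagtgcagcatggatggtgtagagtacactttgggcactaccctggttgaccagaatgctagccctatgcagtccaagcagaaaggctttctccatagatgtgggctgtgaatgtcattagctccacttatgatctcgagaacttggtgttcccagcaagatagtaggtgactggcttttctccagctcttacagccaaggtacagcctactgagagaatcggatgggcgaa
Csta1, chr16:36131190-36131439, minus strand: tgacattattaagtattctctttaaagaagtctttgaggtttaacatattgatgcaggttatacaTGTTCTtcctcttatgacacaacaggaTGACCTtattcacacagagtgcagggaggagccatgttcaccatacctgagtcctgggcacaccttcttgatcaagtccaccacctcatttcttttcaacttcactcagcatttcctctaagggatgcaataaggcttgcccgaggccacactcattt
Mug1, chr6:121838291-121838540, plus strand: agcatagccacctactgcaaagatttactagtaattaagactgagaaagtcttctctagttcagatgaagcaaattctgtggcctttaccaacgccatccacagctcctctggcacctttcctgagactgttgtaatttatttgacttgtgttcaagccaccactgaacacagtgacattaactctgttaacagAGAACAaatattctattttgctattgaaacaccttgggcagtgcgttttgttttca
The letters AGAACA or TGTTCT were found in 16.1% of the 32851 promoter windows of this length, and AGGTCA or TGACCT in 14.0%. Neither was found upstream of Slpi, at either start of Wfdc6a or upstream of Eppin. The Csta1 window held TGTTCT at 185 to 180 bases and TGACCT at 158 to 153 bases before the start. The Mug1 window held AGAACA at 56 to 51 bases before the start. Among the members not printed, Wfdc2 held AGGTCA at 6 to 1 bases before its second annotated start, Wfdc3 held 1 TGACCT and Cst3 held 2 AGAACA and 1 TGACCT. The window of Spink5 was not used here. These are matches of 6 letters and not measured binding sites.

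In the wild-type prostate the 8 genes fell into lateral and ventral sets. Slpi, Wfdc6a and Cst3 were higher in the lateral lobe, and Wfdc3, Spink5, Csta1 and Mug1 were higher in the ventral lobe. For Wfdc2 the wild-type lobes overlapped. In limma's fit 7 of the 8 passed an adjusted p of 0.05 between the wild-type lobes, 3 higher and 4 lower in the lateral lobe. Of all genes 57.4% did (31.7% higher and 25.7% lower). In the knockout arrays 8 of 8 passed, 3 higher and 5 lower, beside 62.4% of all genes (35.5% higher and 26.9% lower). Arrays of the 2 lobes did not overlap for 7 and 8 of the 8, beside 66.6% and 65.1% of all genes. The members were chosen for such differences, so nothing is read from these counts. Among all genes the wild-type lobes gave 5770 higher and 4673 lower calls in the lateral lobe after joint normalization, but 2240 and 10144 on the values as deposited, whose median gene was shifted by -0.34. The sign of the lobe difference of each of the 8 was the same as deposited, after joint normalization and with the arrays centred on their medians.

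**Figure D1:**
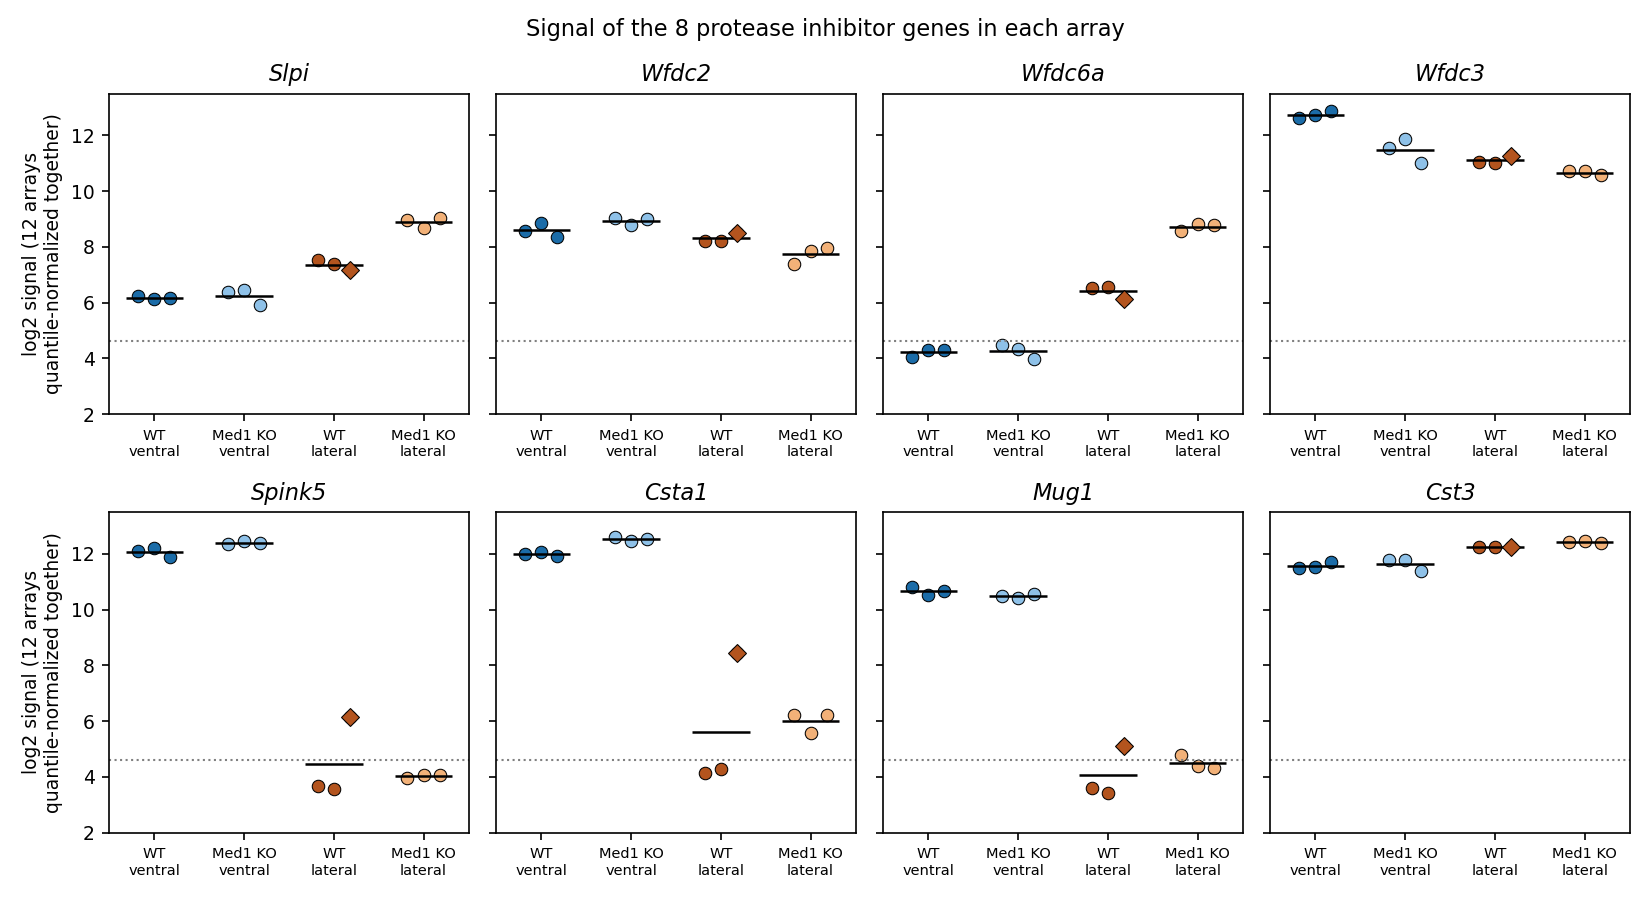
Signal of each of the 8 genes in the 12 arrays (log2, arrays quantile-normalized together), with a point per array, a bar at the mean of the 3 arrays of a group, and a diamond for wild-type lateral array 3. The dotted line is the low-signal mark of 4.63. Spink5, Csta1 and Mug1 lie far higher in the ventral lobe, Wfdc6a is under the mark in every ventral array, and Slpi and Wfdc6a are higher in the lateral arrays labelled knockout.

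Slpi, the secreted inhibitor of neutrophil elastase, read 6.42, 6.30 and 6.34 in the wild-type ventral arrays and 6.60, 6.63 and 6.09 in the ventral knockout arrays. The lateral values were 7.27, 7.20 and 6.95 in wild type and 8.70, 8.33 and 8.74 in the arrays labelled knockout. The ventral groups overlapped, with a difference of 0.09 ± 0.15, whereas every lateral array labelled knockout was above every wild-type one. The lateral difference was 1.45 ± 0.15, or 2.73-fold, and it stayed between 1.35 and 1.58 with each array left out in turn. After joint normalization Slpi was 1.18 ± 0.14 higher in the lateral than in the ventral lobe of wild type and 2.65 ± 0.14 higher in the arrays labelled knockout. Its order of groups was both ventral groups, then wild-type lateral, then the lateral arrays labelled knockout, and only the ventral neighbours overlapped.

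Wfdc6a, a WAP-domain gene of the same stretch of chromosome 2, followed that order. Its ventral signal was low in every array, from 4.17 to 4.45 in wild type and from 4.05 to 4.60 in knockout, so no ventral fold is given. The lateral wild-type arrays read 6.32, 6.38 and 5.96, and those labelled knockout 8.31, 8.48 and 8.46. The lateral groups were apart by 2.20 ± 0.14, or 4.59-fold, and by 2.07 to 2.28 with each array left out in turn. Against the low ventral signal the lateral lobe was at least 2.19 higher in wild type and at least 4.46 higher in the arrays labelled knockout. Slpi and Wfdc6a are thus 2 WAP genes that were low or lower in the ventral lobe and at their highest in the lateral arrays labelled knockout.

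Wfdc2, known as HE4 in human, is a secreted WAP protein of male tract and airway epithelia. It read 8.81, 9.18 and 8.59 in wild-type ventral arrays and 9.31, 9.09 and 9.27 in ventral knockout arrays. The lateral values were 7.96, 8.01 and 8.28 in wild type and 7.14, 7.54 and 7.68 in the arrays labelled knockout. The ventral groups overlapped and differed by 0.36 ± 0.16, and the lateral groups did not overlap and differed by -0.63 ± 0.16. The lateral difference cleared limma's threshold with all arrays, but not after joint normalization, where it was -0.58, nor without any 1 of wild-type ventral array 1, the 3 wild-type lateral arrays, or arrays 1 and 2 of those labelled knockout. Between the wild-type lobes it was -0.28 ± 0.16 after joint normalization, -0.78 as deposited and -0.42 with centred arrays, and only the last 2 passed. In the arrays labelled knockout it was lower in the lateral lobe, with a difference of -1.20 ± 0.16.

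Wfdc3, a WAP-domain gene at the far end of the stretch, read 12.80, 12.88 and 13.02 in wild-type ventral arrays and 11.80, 12.14 and 11.24 in ventral knockout arrays. The lateral arrays gave 10.78, 10.82 and 11.05 in wild type and 10.47, 10.32 and 10.27 in those labelled knockout. With this brightest probe set knockout arrays were below wild-type arrays without overlap in both lobes. The ventral difference was -1.17 ± 0.17, 2.25-fold, and ranged from -1.37 to -0.93 with each array left out in turn. The lateral difference was -0.53 ± 0.17 and missed limma's threshold with all arrays, but passed it with the 6 lateral arrays alone or without ventral knockout array 2 or 3. In wild type Wfdc3 was lower in the lateral lobe, with a difference of -1.63 ± 0.17. In the arrays labelled knockout the lobes differed by -0.82 ± 0.17, and the ventral knockout arrays overlapped with the wild-type lateral ones.

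A second probe set for Wfdc3 did not show the ventral difference. Its means were 5.67 ± 0.07 (SD, n = 3) in wild type and 5.63 ± 0.24 (SD, n = 3) in ventral knockout arrays. With the mean of both probe sets the ventral difference was -0.60 and the lateral one -0.20. Other secretory products of the prostate were lower in the same arrays. Of 7 measured markers 5 fell in the ventral knockout arrays, beside 3.20% of all genes. Among them were the androgen-regulated probasin gene Pbsn, with a difference of -1.28, and the microseminoprotein gene Msmb, with -0.86. A summed level here is the log2 of the added unlogged signals, as deposited, so the brightest genes weigh most. For those 7 it was 15.67 to 15.79 in wild-type and 15.15 to 15.24 in knockout ventral arrays. In the lateral groups it was 15.62 to 15.90 and 15.71 to 15.80. The part of these products in the Wfdc3 difference was not tested. In bulk tissue fewer cells of a type and less RNA per cell cannot be told apart.

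Spink5, Csta1 and Mug1 marked the ventral lobe. They were 3 of the 30 genes at least 16-fold higher in the ventral lobe, with both genotypes together and values as deposited. Spink5 encodes LEKTI, the multidomain Kazal inhibitor that restrains kallikreins in skin. It read 12.32, 12.44 and 12.13 in wild-type ventral arrays, and 12.51, 12.63 and 12.53 in knockout ones, just above and without overlap. Its lateral signal was 3.60, 3.47 and 5.97 in wild type and 3.88, 4.02 and 4.02 in the arrays labelled knockout, low in all arrays but wild-type array 3. Lateral minus ventral was -7.60 ± 0.47 for wild type and -8.36 ± 0.47 for the knockout groups, both lower bounds in size. Without wild-type lateral array 3 the first of these was -8.45 ± 0.10. Between genotypes Spink5 differed by 0.26 ± 0.45 in the ventral lobe, with an SE of 0.10 once that array was left out. Both lateral means were low, so no lateral genotype difference is given.

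Csta1, a stefin that inhibits papain-like cathepsins, read 12.23, 12.33 and 12.15 in wild-type ventral arrays and 12.73, 12.64 and 12.67 in ventral knockout arrays. The ventral groups did not overlap. Its lateral signal was 4.05, 4.18 and 8.21 in wild type and 6.04, 5.45 and 6.05 in the arrays labelled knockout. Wild-type array 3 alone was above those labelled knockout, and the other 2 were low and below them. Lateral minus ventral was -6.37 ± 0.79 for wild type and -6.53 ± 0.79 for the knockout groups. Without wild-type lateral array 3 the wild-type difference was -7.78 ± 0.16.

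That array also set the genotype differences of Csta1. The ventral difference of 0.45 had an SE of 0.75 with all 12 arrays, and 0.09 with the 6 ventral arrays alone, where it passed limma's threshold. The lateral difference was 0.36 ± 0.75 with all arrays and 1.73 ± 0.15 without wild-type lateral array 3, where it passed and is a lower bound. The ventral minus lateral difference then went from 0.08 to -1.29. With wild-type lateral array 3 kept, the lateral difference was -0.35 ± 0.75 without wild-type lateral array 1 and -0.29 ± 0.77 without array 2. It passed in neither of these fits.

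Mug1 encodes murinoglobulin, a single-chain relative of alpha-2-macroglobulin that is best known from mouse plasma and made by the liver. It read 11.09, 10.84 and 10.94 in wild-type ventral arrays and 10.76, 10.72 and 10.80 in ventral knockout arrays. The lateral arrays gave 3.54, 3.33 and 4.97 in wild type and 4.66, 4.34 and 4.25 in those labelled knockout. The ventral groups were apart by -0.20 ± 0.30, with every wild-type array at or above 10.84 and every knockout array at or below 10.80, but they overlapped after joint normalization. Lateral minus ventral was -6.61 ± 0.32 for wild type and -5.99 ± 0.32 for the knockout groups, both lower bounds in size. Without wild-type lateral array 3 the wild-type value was -7.15 ± 0.14.

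Both lateral Mug1 means were low, with and without wild-type array 3, so no lateral genotype difference is given. A second probe set that also matches Mug2 and Mug-ps1 had the same lobe pattern, with means of 11.11 and 10.90 in the ventral and 3.57 and 4.20 in the lateral groups. Mug1 and Mug2 are near-identical copies, so the signal may belong to either. The hepatocyte marker Alb, for albumin, read between 4.92 and 5.62 over the 12 arrays, and of 8 hepatocyte markers 1, the transthyretin gene Ttr, rose in the lateral lobe and none passed in the ventral lobe by limma, where 2 had an unadjusted p under 0.05.

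**Figure D2:**
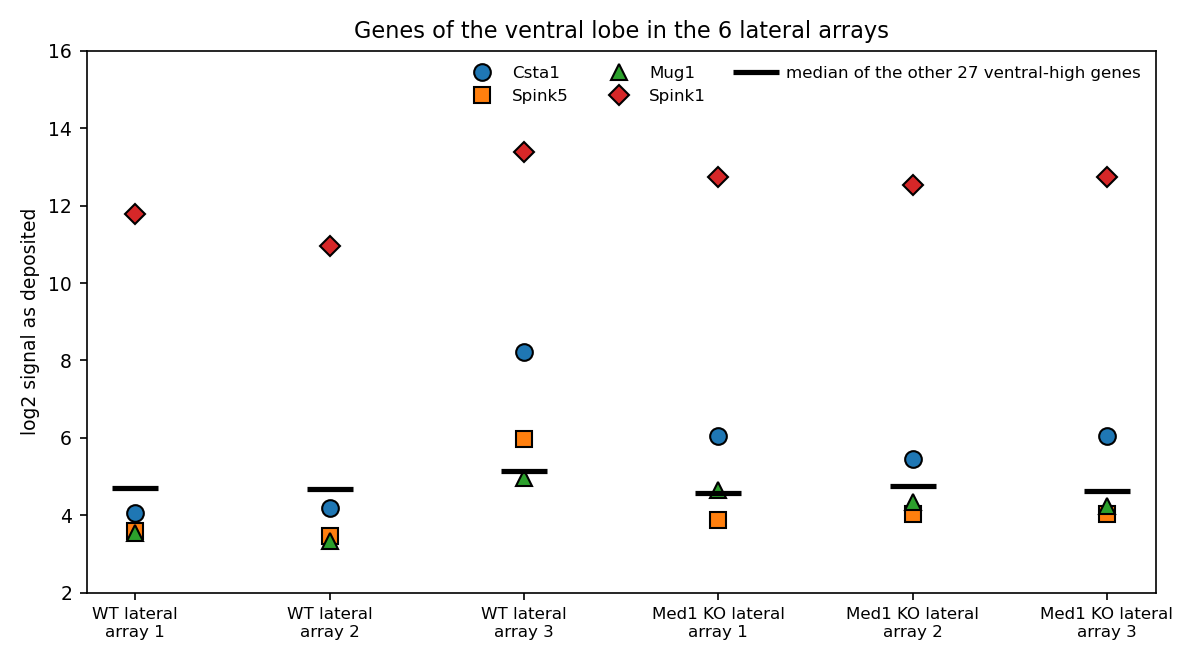
Log2 signal, as deposited, of Csta1, Spink5, Mug1 and the Kazal gene Spink1 in the 6 lateral arrays, with the median of the other 27 ventral-high genes as a black bar. Wild-type array 3 is the highest lateral array for all 4 genes, and its Csta1 signal of 8.21 compares with 4.05 and 4.18 in the other wild-type arrays.

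Spink1, a Kazal-type trypsin inhibitor and an abundant secretory product, is no member but moved with the same array. It read 11.77, 10.96 and 13.38 in the wild-type lateral arrays and 12.74, 12.54 and 12.75 in those labelled knockout. Its difference was 0.64 with all arrays and 1.31 with wild-type array 3 left out. Without that array Csta1 and Spink1 were higher in all arrays labelled knockout than in both remaining wild-type arrays. This comparison was made after the arrays had been seen.

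Cst3 encodes cystatin C, the secreted inhibitor of cysteine cathepsins that nearly every tissue makes. It varied least of the 8, with group means that spanned 0.845 after joint normalization. It read 11.76, 11.78 and 11.96 in wild-type ventral arrays and 12.03, 12.03 and 11.63 in ventral knockout arrays, which overlapped and differed by 0.06 ± 0.11. The lateral arrays read 12.08, 12.08 and 12.06 in wild type and 12.27, 12.17 and 12.24 in those labelled knockout, with no overlap and a difference of 0.16 ± 0.11. Its lateral minus ventral difference in wild type was 0.67 ± 0.10 after joint normalization and 0.24 as deposited, where it no longer passed.

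**Figure D3:**
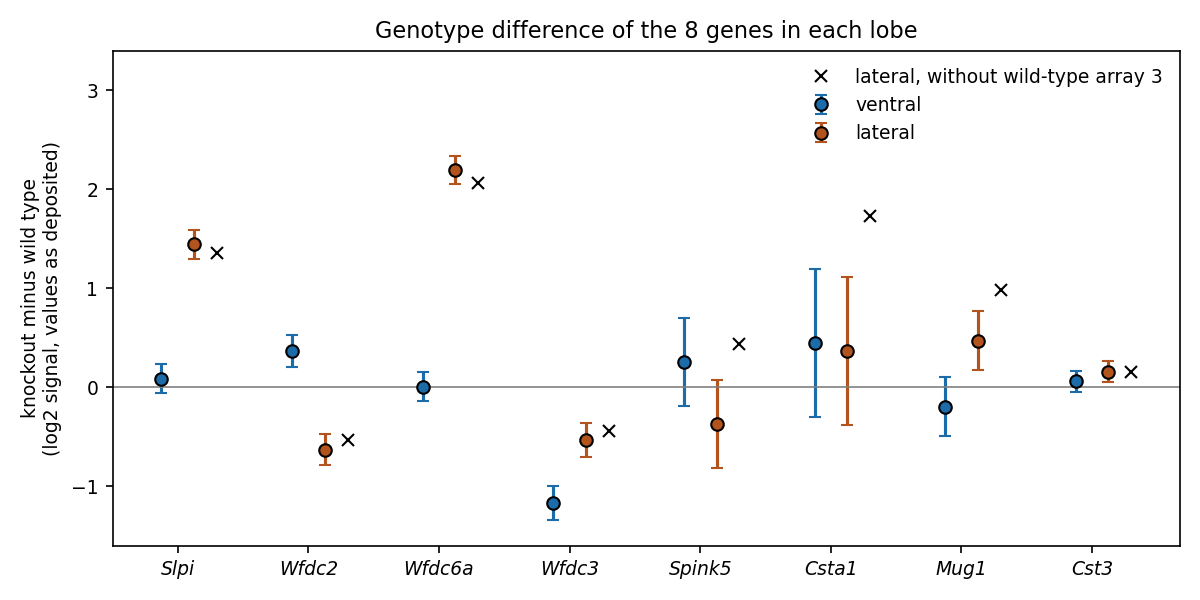
Knockout minus wild type (log2, values as deposited) for the 8 genes in the ventral and the lateral lobe, with bars of 1 moderated SE from the 12-array fit. Crosses give the lateral difference with wild-type array 3 left out. Slpi and Wfdc6a stand high in the lateral lobe, Wfdc3 stands low in the ventral lobe, and the cross lies well above the point for Csta1 (1.73 against 0.36). The lateral points and crosses of Spink5 and Mug1, and the ventral point of Wfdc6a, are between low mean signals.

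By genotype, the 8 genes had their main ventral difference at Wfdc3 and their main lateral differences at Slpi, Wfdc6a and Wfdc2. In the ventral lobe 1 of 8 passed, in the lower direction, where 9.08% of all genes passed (5.88% higher and 3.20% lower). In the lateral lobe 3 of 8 passed, 2 higher and 1 lower, beside 5.03% of all genes (1.62% higher and 3.42% lower). Groups did not overlap for 4 of 8 in the ventral and 5 of 8 in the lateral lobe, beside 29.5% and 26.9% of all genes. The median difference was 0.07 and 0.26 over the 8, against -0.02 and -0.00 over all genes. Without wild-type lateral array 3 the lateral count was 4 of 8, all higher (Slpi, Wfdc6a, Csta1 and, between low means, Mug1), beside 2.74% of all genes. The genes had been picked with these differences known, and nothing is read from the counts.

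The ventral difference minus the lateral difference passed for 3 of 8 genes, beside 9.31% of all genes. It was -1.36 ± 0.21 for Slpi, 0.99 ± 0.23 for Wfdc2 and -2.19 ± 0.20 for Wfdc6a, whose ventral signals were low in both groups. For Slpi and Wfdc6a it also passed without the 3 arrays that stood apart, and for Wfdc2, then 0.87, it did not. Wfdc3 had -0.64 ± 0.24 and passed, of the fits with 1 array left out, only in that without ventral knockout array 2. The count was 5 of 8 without wild-type lateral array 3, beside 6.06% of all genes, with Csta1 at -1.29 and Mug1 at -1.18 as the added genes. Their lateral signals in the remaining wild-type arrays were low.

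The 4 WAP members lie in 1 run of genes on chromosome 2, the cluster that also holds the seminal vesicle secretory genes. From Wfdc5 to Wfdc3 the RefSeq gene table for mouse lists 32 protein-coding genes, of which 22 were measured and 10 were not analysed here. Of the 22, 3 rose in the lateral arrays labelled knockout, namely Slpi, Wfdc6a and Eppin, and 6 fell, namely Wfdc2, Wfdc15b, Svs3a, Svs4, Svs5 and Svs6, beside 1.62% and 3.42% of all genes. In the ventral lobe Dbndd2 and Wfdc15b rose and Wfdc3 fell, beside 5.88% and 3.20% of all genes. The stretch was drawn around the 4 WAP members, and the calls of Slpi, Wfdc6a, Wfdc2 and Wfdc3 are theirs. These members were picked with their differences known, so nothing is read from the counts. Dbndd2 lost its call without wild-type ventral array 3 or knockout ventral array 1 or 3. Svs5 is the next gene to Slpi in this order, and Eppin the next to Wfdc6a, while 9 genes lie between Slpi and Wfdc6a.

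Svs genes encode the proteins of the seminal vesicle that form the copulatory plug. Svs5 read 13.74, 13.70 and 13.76 in wild-type lateral arrays and 11.02, 11.03 and 9.06 in those labelled knockout. Its difference was -3.36 ± 0.37 (limma, adjusted p = 8.22e-05). Without array 3 of the arrays labelled knockout it was -2.71 ± 0.12 and still passed. Svs4 differed by -3.49 ± 0.29, from 11.98 to 8.50, with adjusted p = 6.41e-06 in limma. Slpi, directly beside Svs5, thus differed by 1.45 in the other direction.

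Of 8 measured seminal vesicle products 5 fell in the lateral arrays labelled knockout, beside 3.42% of all genes. They were Svs3a, Svs4, Svs5 and Svs6 of the same stretch and Sva, which differed by -1.12. Svs2 and Pate4 differed by -2.53 and -3.23 and Ceacam10 by -0.01, and these did not pass in limma's fit. The summed level of the 8 was 15.30 to 15.38 in wild-type and 11.61 to 13.38 in lateral arrays labelled knockout. In the ventral lobe it was 8.81 to 9.77, also as deposited. Within the arrays labelled knockout, array 3 had the lowest Svs5 signal, while its Slpi signal of 8.74 was the highest of the 3 and its Wfdc6a signal of 8.46 was the middle one. In the urothelium list Upk1a and Upk3b rose by 0.68 and 0.73, 2 of 6 measured, beside 1.62% of all genes. The summed level was 11.21 to 11.32 in wild-type lateral arrays and 11.71 to 11.74 in those labelled knockout. In the ventral arrays it was higher, 12.32 to 12.55 as deposited. Upk1a, the brightest of this list, read 12.15 to 12.40 there and 10.33 to 11.13 in the lateral arrays. The part of either tissue in the Slpi and Wfdc6a differences was not tested. The 6 measured neutrophil markers, of interest since Slpi restrains neutrophil elastase, passed in neither direction in either lobe by limma. In each lobe 1 had an unadjusted p under 0.05. Of the 6, 2 were low in all lateral arrays and 3 in all ventral arrays.

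**Figure D4:**
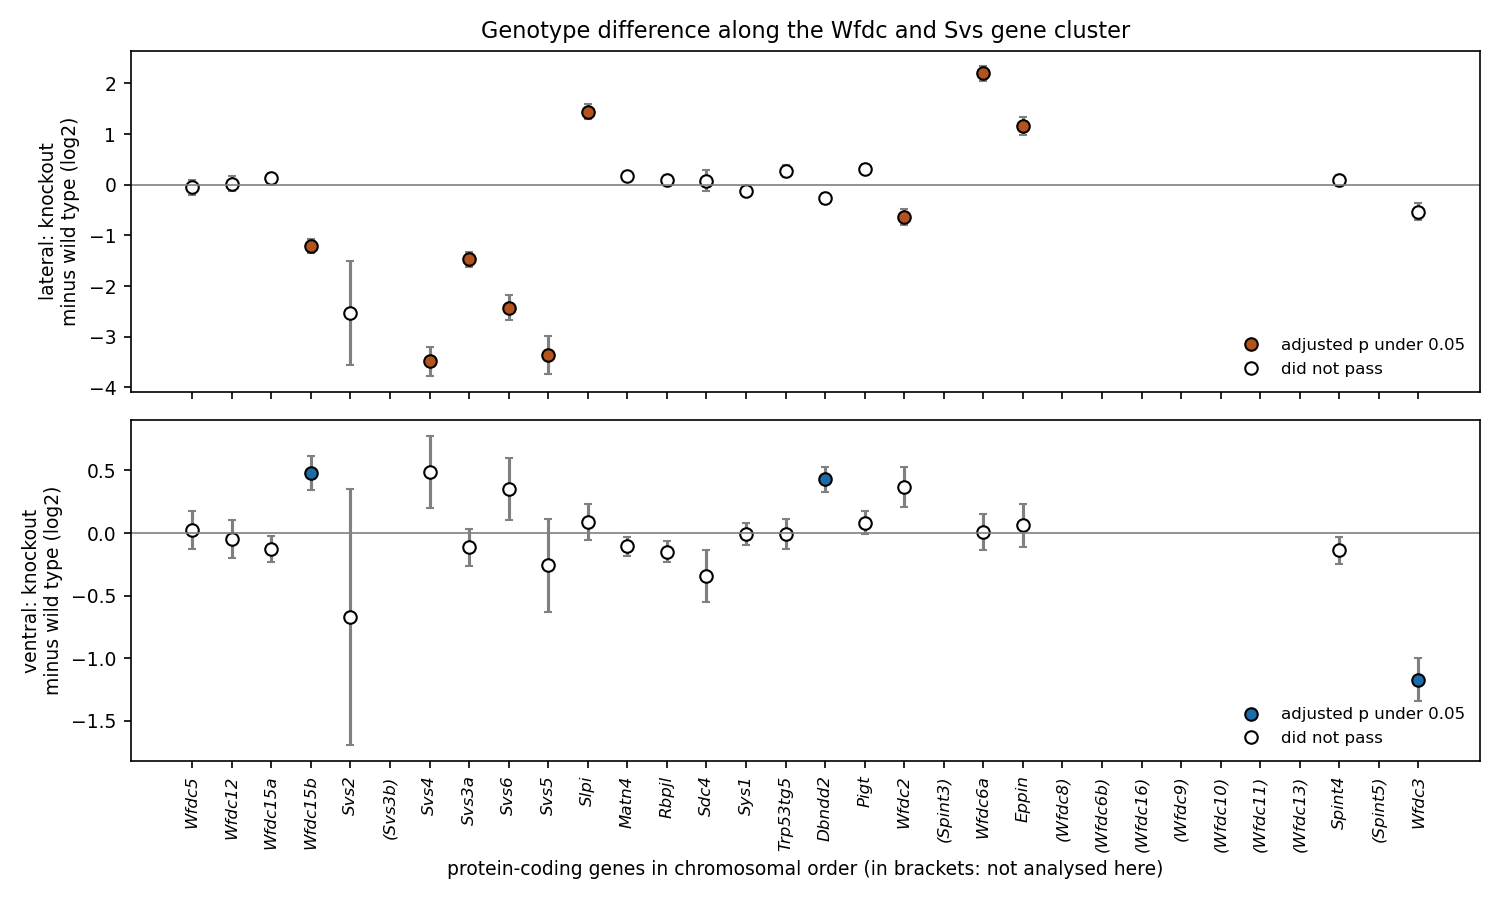
Knockout minus wild type (log2, values as deposited, bars of 1 SE) in the lateral lobe above and the ventral lobe below, for the 32 protein-coding genes from Wfdc5 to Wfdc3 in chromosomal order. Filled points passed limma's adjusted p of 0.05, open points did not, and genes in brackets were not analysed here. In the lateral lobe Slpi, Wfdc6a and Eppin lie above 0 and the Svs genes below it.

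Eppin, a sperm-coating protein with a WAP and a Kunitz domain, was also the gene most like Wfdc6a. Likeness was the root mean square difference over the 12 jointly normalized arrays after each gene was centred on its mean, and it was 0.65 between these 2. Eppin read 5.46, 5.02 and 5.33 in wild-type lateral arrays and 6.22, 6.91 and 6.15 in those labelled knockout, apart by 1.16 ± 0.17 (limma, adjusted p = 0.00111), and was low in every ventral array. It passed with any 1 array left out. The next most like gene was Chac1, at 0.75.

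For Slpi the most like genes were Apoc1, an apolipoprotein gene, at 0.32 and Msln, for mesothelin, at 0.38. Wfdc2 was nearest to Bmi1 and Slc39a10, both at 0.17, and Wfdc3 to St6galnac4 at 0.23 and Uts2r at 0.27. Mug1 was nearest to Tex24 at 0.38 and Lrrc52 at 0.40. Csta1 was nearest to Crabp1 at 0.81 and Spink5 to Scgb2b27 at 0.84. Cst3 had too small a span for such a comparison.

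The measured chromosomal neighbours of Spink5 and Csta1 were lower in the wild-type lateral lobe, by smaller differences than the members. Spink14, the other neighbour of Spink5, and Mug2 beside Mug1 were not analysed here. Of all genes 25.7% passed as lower and 31.7% as higher in the lateral lobe, so nothing is read from the neighbours. Stfa2l1, another stefin beside Csta1, differed by -0.57 (limma, adjusted p = 0.0101). On the other side of Csta1, Ccdc58 differed by -0.55 (limma, adjusted p = 0.000183), and Gm94 beside Spink5 by -0.31 (limma, adjusted p = 0.02). A2m, next to Mug1 and the founding gene of its family, was 0.34 higher in the lateral lobe (limma, adjusted p = 0.0299). Cst10 and Cstdc2, beside Cst3, were higher in the lateral lobe by 0.31 and 0.46, the direction of Cst3 itself.

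In the wider family, 143 protease inhibitor genes in 6 lists, 99 were measured, 91 of them besides the members. In the ventral lobe 5 of these 91 rose and 1 fell, 6.59% of them beside 9.08% of all genes. Laterally 2 rose and 6 fell, 8.79% beside 5.03%. The median differences of the 91 were -0.02 and 0.08, against -0.02 and -0.00 over all genes. Without the 3 arrays that stood apart the ventral counts were 0 and 1 and the lateral ones 3 and 6.

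Among the inhibitors that rose in ventral knockout arrays were Reck, a membrane-anchored inhibitor of matrix metalloproteinases with Kazal-like repeats, and Serpinb1a, an intracellular inhibitor of neutrophil serine proteases. Reck read 6.35, 6.67 and 6.25 in wild-type and 7.06, 7.32 and 7.15 in knockout ventral arrays, a difference of 0.75 ± 0.15 (limma, adjusted p = 0.00647). Serpinb1a differed by 0.76 ± 0.16 (adjusted p = 0.00925 in limma). These ventral rises passed with any 1 array left out, but neither passed without the 3 arrays that stood apart. Reck and Serpinb1a were lower in the lateral arrays labelled knockout, by log2 differences of -0.61 and -0.69. The lateral differences passed with all arrays but not without several single lateral arrays. Reck lost its lateral call without wild-type array 1, 2 or 3 or array 2 or 3 of those labelled knockout. Serpinb1a lost its own without wild-type array 2 or 3 or array 1 or 2 of those labelled knockout.

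Serpinh1, the collagen chaperone HSP47, and Serping1, the inhibitor of complement C1, rose by 0.41 and 0.53 in the ventral knockout arrays. The first lost its call without wild-type ventral array 1 or 2 or knockout array 3, and the second without wild-type ventral array 2 or 3 or knockout array 1. Neither passed without the 3 arrays that stood apart. In the lateral lobe Serpinh1 and Serping1 differed by -0.36 and -0.24 and did not pass. Of 7 measured fibroblast markers 5 rose in the ventral and 4 fell in the lateral lobe, beside 5.88% and 3.42% of all genes. Their summed level was 12.77 to 13.01 in wild-type and 13.11 to 13.25 in knockout ventral arrays, and 12.65 to 12.75 and 12.19 to 12.49 in the lateral groups. Smooth muscle markers gave 5 of 8 higher in the ventral and 4 of 8 lower in the lateral lobe, beside the same shares of all genes. The part of these cells in the inhibitor differences was not tested.

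Serpinb11, an intracellular serpin, fell in the ventral lobe, from 7.56, 7.78 and 7.54 to 6.08, 6.21 and 6.21, a difference of -1.46 ± 0.18 (limma, adjusted p = 0.000241). Timp4, a tissue inhibitor of metalloproteinases, rose in the lateral lobe by 0.70 ± 0.08 (limma, adjusted p = 0.000133). Serpinb9, the granzyme B inhibitor, fell by 0.94 there, and Wfdc15b fell by 1.21, from 7.78, 7.48 and 7.89 to 6.51, 6.36 and 6.65. Spink10 and Serpinb6b went from means of 5.30 and 5.34 to low signals, with differences of -1.51 and -1.49 that are lower bounds in size. Each of these 6 calls held with any 1 array left out. The ventral rise of Wfdc15b from a low signal, 0.48, did not hold without 8 of the 12 arrays taken singly.

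**Figure D5:**
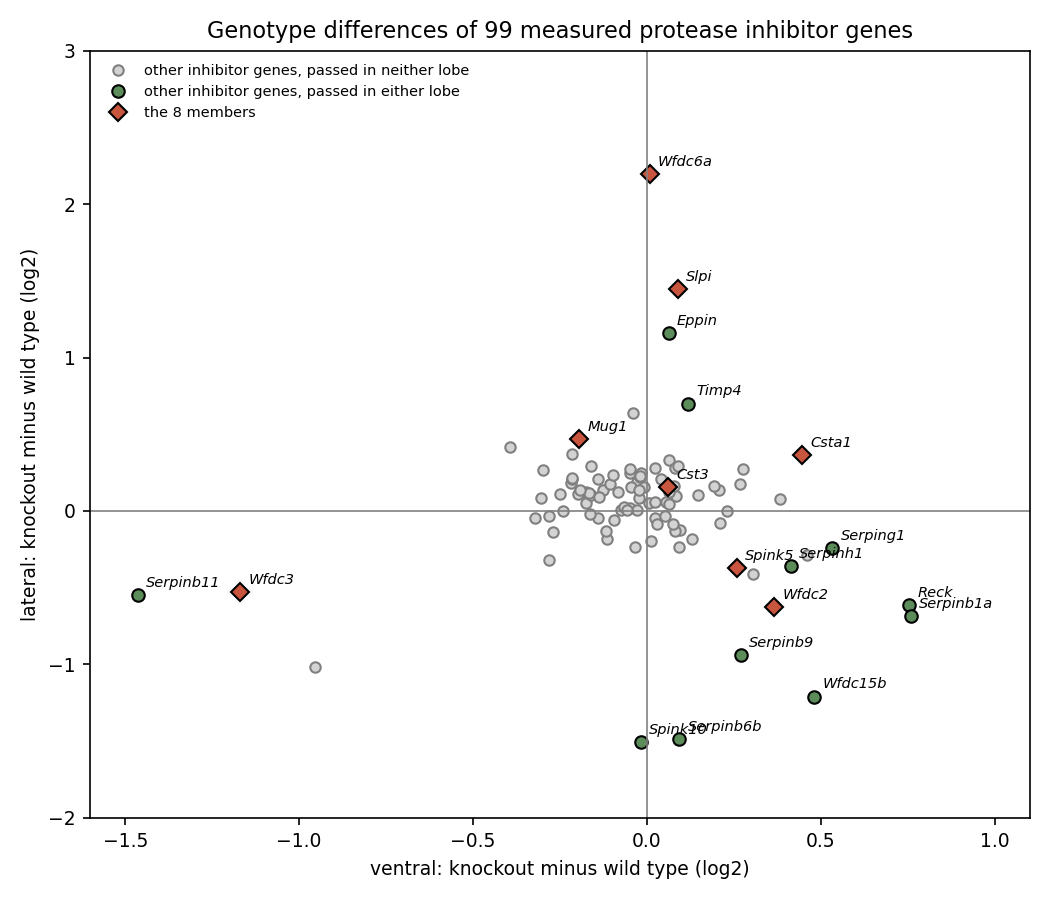
Knockout minus wild type (log2, values as deposited) in the ventral lobe (horizontal) and the lateral lobe (vertical) for the 99 measured protease inhibitor genes. Diamonds are the 8 members, green points other inhibitors past limma's adjusted p of 0.05 in either lobe, and grey points the rest. Wfdc6a, Slpi and Eppin stand at the top near 0 on the ventral axis, and Wfdc3 and Serpinb11 lie on the left.

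By family, the WAP list gave 3 higher and 2 lower of 16 in the lateral lobe, members included, beside 1.62% and 3.42% of all genes. Ventrally it gave 1 higher and 1 lower, beside 5.88% and 3.20%. The lateral calls of Slpi, Wfdc6a and Wfdc2 and the ventral call of Wfdc3 are those of members. Those were picked with these differences known, so nothing is read from the counts. Besides the members, Eppin rose and Wfdc15b fell in the lateral lobe. The ventral rise is that of Wfdc15b and 1 of the lateral falls that of Wfdc2, whose calls were lost without 8 and 6 of the 12 arrays taken singly. Among 16 cystatins and stefins, and among 5 genes of the alpha-2-macroglobulin family, none passed between genotypes in either lobe with all arrays in limma's fit. At an unadjusted p under 0.05 there were 2 cystatins or stefins in each lobe, and 0 and 1 genes of the macroglobulin family in the ventral and lateral lobes. Csta1 passed in the lateral lobe without wild-type array 3, and so did Mug1 between low means.

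The proteases that such inhibitors meet were followed in 2 lists, of which 55 of 63 genes were measured. Ventrally 5 rose and 2 fell (12.7%, beside 9.08% of all genes), and in the lateral lobe 6 rose and 4 fell (18.2%, beside 5.03%). Of the 7 ventral calls 4 held with any 1 array left out, and of the 10 lateral calls also 4. The other 6 lateral calls were all lost without wild-type lateral array 1, and also without array 2 (Klk1b24, Klk1b8, Ctsf, Tmprss4, Hpn and Ctsk). Ventrally Ctsb, Klk1b24 and Tmprss11a lost theirs in some of these fits, Ctsb in 10 and Klk1b24 in 8 of 12. Ctsh, a lysosomal cathepsin that cystatins inhibit, rose in both lobes, by 0.90 ± 0.09 and 1.00 ± 0.09 (limma, adjusted p = 2.91e-05 and 1.10e-05). Its lateral arrays went from 8.73, 8.86 and 8.75 to 9.86, 9.68 and 9.80. Ctsz rose in both lobes too, by 0.46 and 0.48. Cst3, their broad inhibitor, was 0.06 and 0.16 higher in the same arrays and passed in neither lobe.

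Plau, the urokinase-type plasminogen activator, had the largest difference of the protease lists. It read 10.77, 10.50 and 10.97 in wild-type lateral arrays and 5.68, 6.22 and 5.16 in those labelled knockout, and its difference was -5.05 ± 0.23 (limma, adjusted p = 1.21e-08). In the ventral lobe it was 0.58 ± 0.23 higher in knockout arrays and did not pass. Prss23, a secreted serine protease, rose by 1.28 ± 0.11 in the ventral lobe and fell by 0.61 in the lateral lobe (limma, adjusted p = 1.89e-05 and 0.00585). Each of these 4 protease genes passed in those lobes with any 1 array left out.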

How the data were processed

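Total RNA of 12 prostate samples was labelled and hybridised to Affymetrix arrays, 3 for each lobe and genotype. Per the submitters' processing notes, RMA in Affymetrix Expression Console gave the log2 signals that were deposited, with no version named. RMA corrects background, quantile-normalizes arrays and summarises probes. Array medians were alike within a lobe and differed between lobes, as separate runs of RMA would leave them. The number of arrays limits the precision.

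Of 45101 probe sets 34958 named 1 gene, 932 several and 9211 none in the platform annotation, and 34754 were updated through their Entrez numbers. The brightest probe set stood for each of 18194 genes. The means of the 4 groups were compared by limma (version 3.58.1, R version 4.3.3) using lmFit, contrasts.fit and eBayes on all 12 arrays, with Benjamini-Hochberg adjustment over all genes and a threshold of 0.05. Lobes were compared after quantile normalization of the 12 arrays together. The fits were tested on simulated data.

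The members, gene lists and marker lists were chosen with earlier results of these data known. Besides the members, Med1, marker genes and neighbours on the chromosome, up to 6 genes per direction with the smallest p were eligible from the inhibitor and from the protease lists, and the 2 most like genes of each member whose group means span at least 1. Alternatives were the 6 arrays of 1 comparison, other scalings, the mean of a gene's probe sets, leaving out the dimmest 40% of genes, a trended robust variance, the replicate number as a block and each array left out. Leaving out together the 3 arrays that stood apart was chosen after seeing the data. Promoter sequences are RefSeq's, from GRCm38.p6. Protein sequences were not used here.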

Additional observations from a re-analysis of the deposited data

Results flagged for a closer look

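The genotype difference was not the same in the lobes for 3 members and 16 other named genes with all arrays. Of all genes 9.31% passed this comparison. The 16 had been named for a small p of their genotype difference in a lobe, so nothing is read from the count. Each value here is the ventral difference minus the lateral difference on the log2 scale. Among the members it was -1.36 for Slpi, 0.99 for Wfdc2 and -2.19 for Wfdc6a, given as descriptions. For Wfdc2 it was 0.87 and no longer passed without the 3 arrays that stood apart. Without wild-type lateral array 3 alone, Csta1 at -1.29 and Mug1 at -1.18 passed as well, which makes 5 members, with low signals in the remaining wild-type lateral arrays.

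The other WAP genes Eppin and Wfdc15b had -1.10 and 1.69. For the Kazal-type genes Reck and Spink10 the values were 1.37 and 1.49, and for the metalloproteinase inhibitor Timp4 -0.58. Among serpins they were 1.44 for Serpinb1a, 0.77 for Serpinh1, 0.77 for Serping1, -0.92 for Serpinb11, 1.21 for Serpinb9 and 1.58 for Serpinb6b. The serine proteases gave 1.89 for Prss23, 0.86 for Prss22, -0.96 for Tmprss11a, -1.19 for Klk1b24 and 5.63 for Plau. The adjusted p-values of these 16 genes in limma's fit ran from 3.30e-07 for Plau to 0.0408 for Serpinb11. Of the 91 inhibitors besides the members, 10 passed with a positive and 6 with a negative value with all arrays. Without the 3 arrays that stood apart 7 and 2 did. Spink10, Serpinb6b, Eppin and the member Wfdc6a had low signals in both ventral groups, so their values rest on the lateral lobe. Tmprss11a was low in all 4 groups, so its value is a difference between low signals.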

How the results depend on the processing

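No difference of a member reversed its sign where it had passed limma's test. Of 787 recomputed member values 761 stayed within 1 SD and 26 moved, 11 of them of Spink5, Csta1 or Mug1. Of 609 recomputed values of other named genes 118 no longer passed and none reversed. In the ventral lobe 1652 genes passed by genotype, 965 with its 6 arrays alone and 718 without the 3 arrays that stood apart. With each array left out the count was 941 to 1760: 1033 without wild-type ventral array 1, 941 without array 3 and 1086 without knockout ventral array 3. In the lateral lobe 916 passed, 342 without the 3 arrays and 499 to 1168 with each left out: 588 without wild-type lateral array 2, 499 without array 3 and 513 without array 2 of those labelled knockout. The lobes' genotype differences differed for 1693 genes, 642 without the 3 arrays and 1103 to 1731 with each left out, the lowest without wild-type lateral array 3. Between lobes 10443 genes passed in wild type and 11354 in knockout, 6866 and 7435 when the dimmest 40% were not tested, and 9330 to 10946 and 10450 to 11281 with each array left out. Of the 99 inhibitors 7 passed in the ventral lobe, 2 without the 3 arrays and 4 to 8 with each left out (4 without wild-type ventral array 2). In the lateral lobe 11 passed, 7 without the dimmest genes and 9 to 15 with each left out. Apart from the filter, which tests fewer genes, the cause was not tested. With the replicate block the counts were 1492, 848, 1558, 10306 and 11279 for these 5 gene counts and 7 and 11 for the inhibitors. Same-numbered arrays correlated between -0.061 and 0.116 in their deviations, and 5 of 12 matched their own number best. With 3 arrays a group this cannot tell whether the numbers pair the samples. With 3 arrays a group, signals under the low mark set no order.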
